A study of Arabidopsis thaliana with 6 samples.

Results

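The 8 genes described here are the auxin response factors of Arabidopsis thaliana that small RNAs target, taken from the 33602 genes of the deposited table by their locus identifiers. They were ARF2 (AT5G62000), ARF3 (AT2G33860) and ARF4 (AT5G60450), targets of the trans-acting siRNAs made from TAS3 transcripts. ARF6 (AT1G30330) and ARF8 (AT5G37020) are targets of miR167, and ARF10 (AT2G28350), ARF16 (AT4G30080) and ARF17 (AT1G77850) are targets of miR160. The rule names the genes and uses no measured value, but it was written with earlier results of these data known. All 8 had at least 100 reads in every library.

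The aerial parts of 18-day-old plants, raised in days of 16 h light and 8 h dark at 22 °C, gave RNA for sequencing once ribosomal RNA had been removed, with 1 library from each of 6 genotypes. These were wild-type Col-0, the single mutants ein5-1, ski2-3 and rdr6-11, the combination ein5-1 ski2-3, called the double mutant, and the combination rdr6-11 ein5-1 ski2-3, called the triple mutant. Col-0 carried no mutant allele, and the sources used here give no number of plants per library. EIN5 (also called XRN4) degrades cytoplasmic RNA from its 5' end, and the helicase SKI2 threads RNA into the exosome, which degrades it from the 3' end. RDR6 copies cleaved RNA into double strands, from which siRNAs are cut. With no replicates, no difference between a pair of libraries has a replicate check, and each describes those libraries.

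Auxin response factors are transcription factors that bind auxin response elements in promoters and activate or repress genes. Activators such as ARF6 and ARF8 are freed to act when auxin removes their Aux/IAA partners. Plants restrain several of them with small RNAs: miR160 and miR167 guide AGO1 to cut their target transcripts. AGO7 loaded with miR390 starts the TAS3 route, in which RDR6, SGS3 and DCL4 turn the TAS3 transcript into phased siRNAs. Fragments left by cutting are cleared by 5'-to-3' and 3'-to-5' decay. In leaves the TAS3 targets ARF3 and ARF4 are known for lower-side identity and for the timing of the juvenile-to-adult change.

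The mature miRNAs are shown because their seeds separate the groups; capitals mark the seed, bases 2 to 8 from the 5' end, and the sequences are from RefSeq (TAIR10.1). The miR160 seed GCCUGGC was shared by miR160a-5p, miR160b and miR160c-5p, which have 1 sequence. The miR167 seed GAAGCUG was shared by miR167a-5p, miR167b and miR167d, while miR167c-5p as annotated has AAGCUGC. The miR390 sequence was the same in miR390a-5p and miR390b-5p.
miR160a-5p: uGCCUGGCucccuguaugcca
miR167a-5p: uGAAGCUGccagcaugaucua
miR167d: uGAAGCUGccagcaugaucugg
miR390a-5p: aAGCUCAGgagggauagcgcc

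The sites below are where miR160 and miR167a pair with their targets among the 8 transcripts, found by searching the TAIR10.1 transcripts of 24 genes (the 8, the 15 other auxin response factors and IAR3) with at most 4 mismatches. Capitals mark bases that do not form a Watson-Crick pair, G:U pairs included. Every site lay in coding sequence. The miR160 sequence matched 3 of the 24 transcripts, ARF10 in exon 2 of 4 (chr2:12115741-12115761, plus strand), ARF16 in exon 3 of 4 (chr4:14704141-14704161, minus strand) and ARF17 in exon 2 of 2 (chr1:29274189-29274209, plus strand). The miR167a sequence matched 2 of the 24, ARF6 in exon 13 of 14 (chr1:10686478-10686498, minus strand) and ARF8 in exon 13 of 14 (chr5:14633841-14633861, plus strand). The miR167c-5p sequence also matched 2 of the 24, ARF6 and ARF8. The longer miR167d sequence matched 0 of the 24 within this limit, which does not show that it has no target among them. No miR167 site was found in IAR3 within the limit.
ARF10 site for miR160: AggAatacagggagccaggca
ARF16 site for miR160: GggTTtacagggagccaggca
ARF17 site for miR160: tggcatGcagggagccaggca
ARF6 site for miR167: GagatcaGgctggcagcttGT
ARF8 site for miR167: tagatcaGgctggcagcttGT

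For TAS3 no siRNA sequence was given, so each of the 927 windows of 21 bases in the TAS3A transcript (947 bases) was tried against ARF2, ARF3 and ARF4. Of these, 14 windows in 2 runs paired with all 3 genes within 4 mismatches, and the best window of each run, is shown as RNA in the sense of the TAS3A transcript. They are matches by sequence, with no claim that either is the siRNA the plant makes.
TAS3A window at base 695: uucuugaccuuguaaggccuu
TAS3A window at base 715: uuucuugaccuuguaagaccc
ARF2 site for the window at base 715: gggtcttGcaaggtcaagaaT
ARF3 first site: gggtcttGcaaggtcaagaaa
ARF3 second site: AggtcttGcaaggtcaagaaa
ARF4 first site: AggtcttGcaaggtcaagaaa
ARF4 second site: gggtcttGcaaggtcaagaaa
ARF2 held 1 such site, in exon 12 of 15 (chr5:24913262-24913282, plus strand). ARF3 held 2, in exon 10 of 10 (chr2:14325941-14325961 and chr2:14325821-14325841, minus strand), and ARF4 held 2, in exon 10 of 12 (chr5:24309717-24309737 and chr5:24309507-24309527, minus strand). The small RNAs themselves were not measured in the values analysed here.

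Reads on nuclear genes ranged from 10942840 in Col-0 to 16593256 in the double mutant. Within nuclear reads, 19.2% lay on ribosomal RNA genes in Col-0 and 0.335% to 2.71% in the mutants. Counts from 1 to 20 were even for 82.1% of such genes in rdr6-11 and 81.8% in the triple mutant; in the other 4 libraries the share was 38.5% to 41.7%. Intervals for ratios with either of those 2 libraries are therefore given with their counts halved. The clock also separated these libraries: the morning gene CCA1 had 0 to 19 reads in the 4 libraries with RDR6, against 639 in rdr6-11 and 900 in the triple mutant. The evening gene ELF4 had 120 to 174 reads in the 4 and 2 and 0 reads in rdr6-11 and the triple mutant. Over 3 morning genes the summed level was 0.498 to 1.53 scaled RPM (reads per 1000000 reads of a library after scaling) in the 4 and 74.0 and 94.9 in these 2; over 3 evening genes it was 228 to 276 and 38.9 and 35.3. These features lie on the same libraries as the rdr6-11 allele and cannot be told apart from it. RDR6 itself had 433, 401, 453 and 779 reads in Col-0, ein5-1, ski2-3 and the double mutant, and 176 and 252 in rdr6-11 and the triple mutant. The leaf genes RBCS1A (3844 to 10548 scaled RPM) and CAB1 (10544 to 19319) were abundant in every library. CAB3, also a leaf gene, had 916 to 1827 scaled RPM in the 4 libraries with RDR6 and 6998 and 5187 in rdr6-11 and the triple mutant. Summed over the 3 leaf genes, the level was 15479 to 27204 in the 4 and 36864 and 30806 in these 2.

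Per length, in the authors' deposited RPKM (reads relative to gene length and to the library's reads), ARF2 had the highest level of the 8 genes in Col-0, at 13.1, and ARF8 the lowest, at 1.73. ARF3 (4.23), ARF16 (3.69), ARF10 (3.49), ARF4 (3.45), ARF6 (3.00) and ARF17 (1.88) lay between them. Without replicates it cannot be said which of these 6 neighbours differ. ARF2 also led in ein5-1, ski2-3 and the double mutant, whereas ARF4 had the highest level in rdr6-11 (9.99 RPKM) and in the triple mutant (12.6 RPKM). ARF10 and ARF16 stood last in rdr6-11, at 1.97 and 1.62 RPKM, and next after ARF2 in the double mutant, at 13.9 and 9.35 RPKM. In bulk tissue, fewer cells that express a gene and less RNA per cell cannot be told apart.

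**Figure D1:**
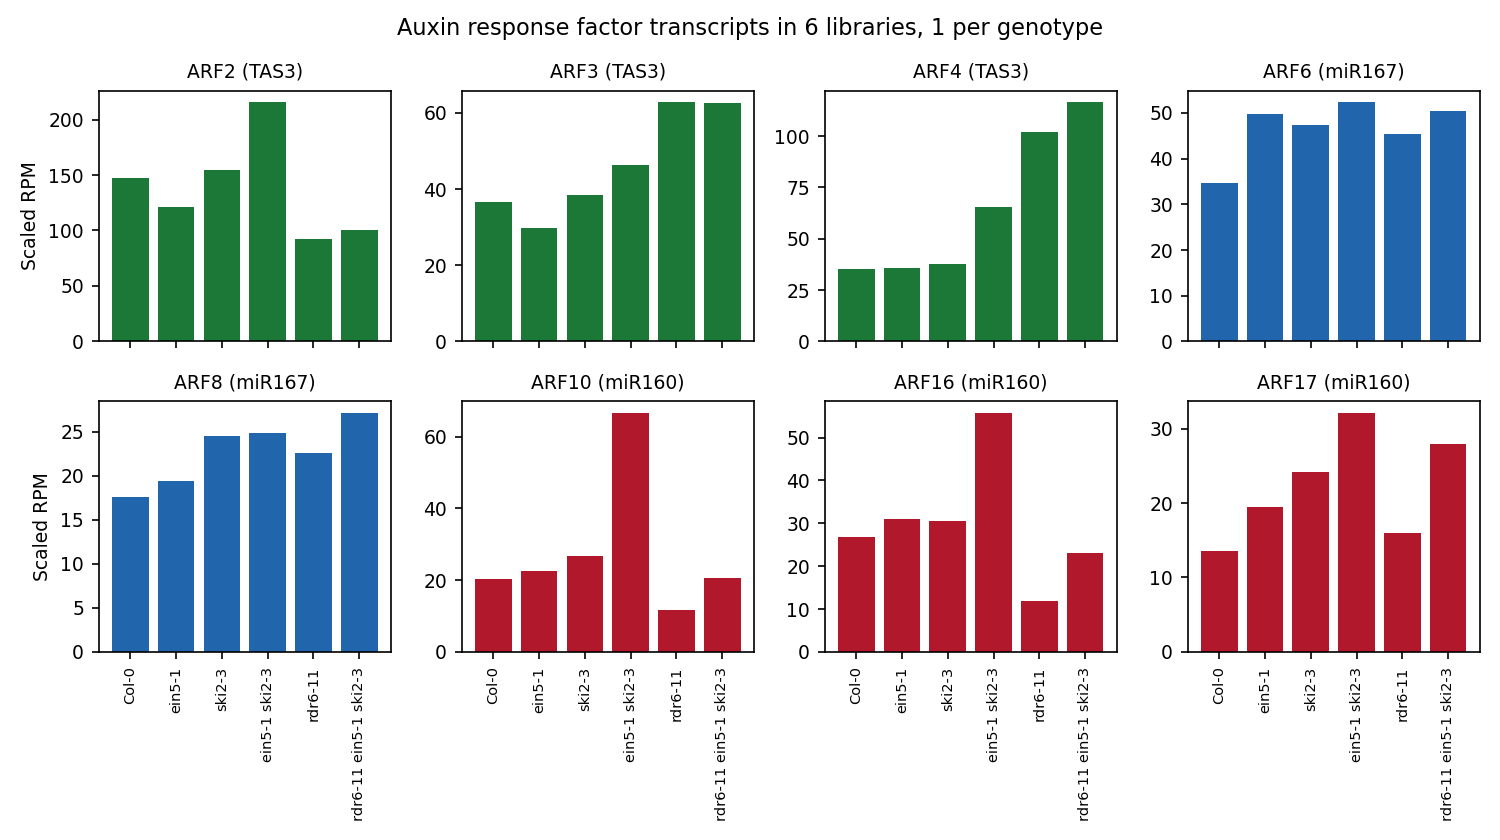
Level of each of the 8 auxin response factors (scaled RPM, axes from 0 with a scale per gene) in each of the 6 libraries, 1 bar per library and no error bars. ARF10 and ARF16 have the largest ratio of highest to lowest level, from 11.6 and 11.9 in rdr6-11 to 66.6 and 55.7 in the double mutant, while the highest bar is 1.51 times the lowest for ARF6 and 1.54 times for ARF8.

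Among the TAS3 targets, ARF3 and ARF4 were highest in the libraries without RDR6, and ARF2 was lowest there. Levels from here on are scaled RPM, and ratios are log2, so that 1 is a 2-fold difference. ARF4, known with ARF3 for the lower side of the leaf, had 35.1 scaled RPM in Col-0, 35.6 in ein5-1, 37.6 in ski2-3, 65.4 in the double mutant, 102 in rdr6-11 and 116 in the triple mutant. Both libraries with rdr6-11 were above the other 4, and the double mutant was above the remaining 3. The log2 ratio of rdr6-11 to Col-0 was 1.54 for ARF4 (95% interval 1.34 to 1.73, halved counts), and 1.84% of the measured genes had a ratio as high. That of the triple mutant to Col-0 was 1.73 (1.55 to 1.91).

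ARF3, also called ETTIN, had 36.5 scaled RPM in Col-0, 29.9 in ein5-1, 38.4 in ski2-3, 46.4 in the double mutant, 62.7 in rdr6-11 and 62.6 in the triple mutant. The order resembled that of ARF4, with a smaller difference. For rdr6-11 against Col-0 the log2 ratio of ARF3 was 0.78 (0.57 to 0.99), and for the triple mutant it was 0.78 (0.58 to 0.98), both under 2-fold. Once RDR6 was absent, losing EIN5 and SKI2 as well left ARF3 with a log2 ratio of -0.0024 (-0.20 to 0.19).

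ARF2, a repressor known for limiting seed and organ size and for leaf senescence, went the other way. It had 148 scaled RPM in Col-0, 121 in ein5-1, 155 in ski2-3, 215 in the double mutant, 92.6 in rdr6-11 and 100 in the triple mutant. The double mutant was highest and the 2 libraries with rdr6-11 were lowest. The log2 ratio of ARF2 was -0.67 (-0.81 to -0.53) for rdr6-11 against Col-0 and -1.10 (-1.22 to -1.0) for the triple against the double mutant. ARF2 carries 1 site for the TAS3A window shown above, where ARF3 and ARF4 each carry 2; with 3 genes no relation to site number can be tested.

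The miR160 targets had their highest levels in the double mutant, and ARF10 and ARF16 their lowest in rdr6-11. ARF10, which acts with ARF16 in root cap formation, had 20.4 scaled RPM in Col-0, 22.6 in ein5-1, 26.7 in ski2-3, 66.6 in the double mutant, 11.6 in rdr6-11 and 20.8 in the triple mutant. The double mutant stood apart from all others, and the highest level was 5.76 times the lowest. For the double mutant against Col-0 the log2 ratio was 1.70 (1.48 to 1.93), and 2.62% of the measured genes had a ratio as high.

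ARF16 had 26.9 scaled RPM in Col-0, 31.1 in ein5-1, 30.5 in ski2-3, 55.7 in the double mutant, 11.9 in rdr6-11 and 23.0 in the triple mutant. As for ARF10, the double mutant was highest and rdr6-11 lowest. The log2 ratio to Col-0 was 1.05 (0.85 to 1.25) for the double mutant and -1.18 (-1.56 to -0.80) for rdr6-11.

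ARF17, a repressor known for its part in adventitious rooting, had 13.6 scaled RPM in Col-0, 19.4 in ein5-1, 24.2 in ski2-3, 32.1 in the double mutant, 15.9 in rdr6-11 and 27.9 in the triple mutant. It was lowest in Col-0, and the double and triple mutants were the 2 highest. Its log2 ratio to Col-0 was 1.23 (0.96 to 1.52) in the double mutant, 1.03 (0.72 to 1.37) in the triple mutant and 0.23 (-0.16 to 0.61) in rdr6-11. The single mutants were higher than Col-0 by less than 2-fold, at 0.51 (0.19 to 0.83) for ein5-1 and 0.83 (0.52 to 1.15) for ski2-3.

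The miR167 targets ARF6 and ARF8, activators that act together in flower maturation, varied least. ARF6 had 34.7 scaled RPM in Col-0, 49.7 in ein5-1, 47.3 in ski2-3, 52.3 in the double mutant, 45.5 in rdr6-11 and 50.5 in the triple mutant. All 5 mutant libraries were above Col-0, with log2 ratios of 0.39 to 0.59. ARF8 had 17.6 scaled RPM in Col-0, 19.4 in ein5-1, 24.5 in ski2-3, 24.9 in the double mutant, 22.6 in rdr6-11 and 27.1 in the triple mutant. Its 5 log2 ratios to Col-0 were also positive, from 0.14 to 0.63. Since the 5 ratios share the Col-0 library, they are not 5 separate observations.

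Counted by a rule of size (at least 2-fold, with at least 100 reads in the library with more reads), loss of either decay factor alone called none of the 8 genes. The same rule called 3.5% of 12987 measured genes in ein5-1 and 3.6% of 12520 in ski2-3. Among genes with at least 100 reads in both libraries, as the 8 have, it called 2.13% and 2.28%. The median log2 ratio of the 8 was 0.14 in ein5-1, against 0.044 over all measured genes, and 0.28 in ski2-3, against 0.055. In ein5-1 ARF2 (-0.28) and ARF3 (-0.29) were below Col-0 and the other 6 genes above it, although ARF4 (0.019) fell below with 2 other scalings. In ski2-3 all 8 were above Col-0, but ARF2, ARF3 and ARF4 fell below it with 2 other scalings and in the authors' RPKM.

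Loss of both decay factors called ARF10, ARF16 and ARF17 higher, which is 3 of 8 genes and all 3 miR160 targets; the rule called 8.6% of 15068 measured genes higher and 15.6% in either direction. Among genes with at least 100 reads in both libraries 3.9% were called higher. All 8 had positive log2 ratios, with a median of 0.74 against 0.078 over all measured genes, and stayed positive under every scaling tried. A scaling moves all genes nearly alike, and median-of-ratios size factors moved them down by only 0.055, so the signs had little room to change. With median-of-ratios size factors ARF16 (0.994) did not pass and 2 of the 8 were called. Total nuclear counts called 5, and 4 were called with total counts that include organelle genes, with total nuclear counts less ribosomal RNA, and in the authors' RPKM. The median of all measured genes rose too, to 0.49 with total nuclear counts, 0.38 with organelle genes included and 0.22 without ribosomal RNA. The share of all genes called under these scalings was not computed. ARF4 came next to the threshold with 0.90 (0.72 to 1.08).

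Of the other 15 auxin response factors, 7 were measured in that comparison, with a median of 0.28. ARF7, an activator that works with ARF19, was the 1 called, at 1.04 (0.82 to 1.27). In the other 6 comparisons 6 or 7 of the 15 were measured, and 3 more calls were made. ARF9 was lower in rdr6-11 against Col-0, at -1.07 (-1.57 to -0.60), ARF19 was higher in the triple mutant against Col-0, at 1.08 (0.82 to 1.35), and ARF11 was lower in the triple against the double mutant, at -1.70 (-2.23 to -1.18).

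**Figure D2:**
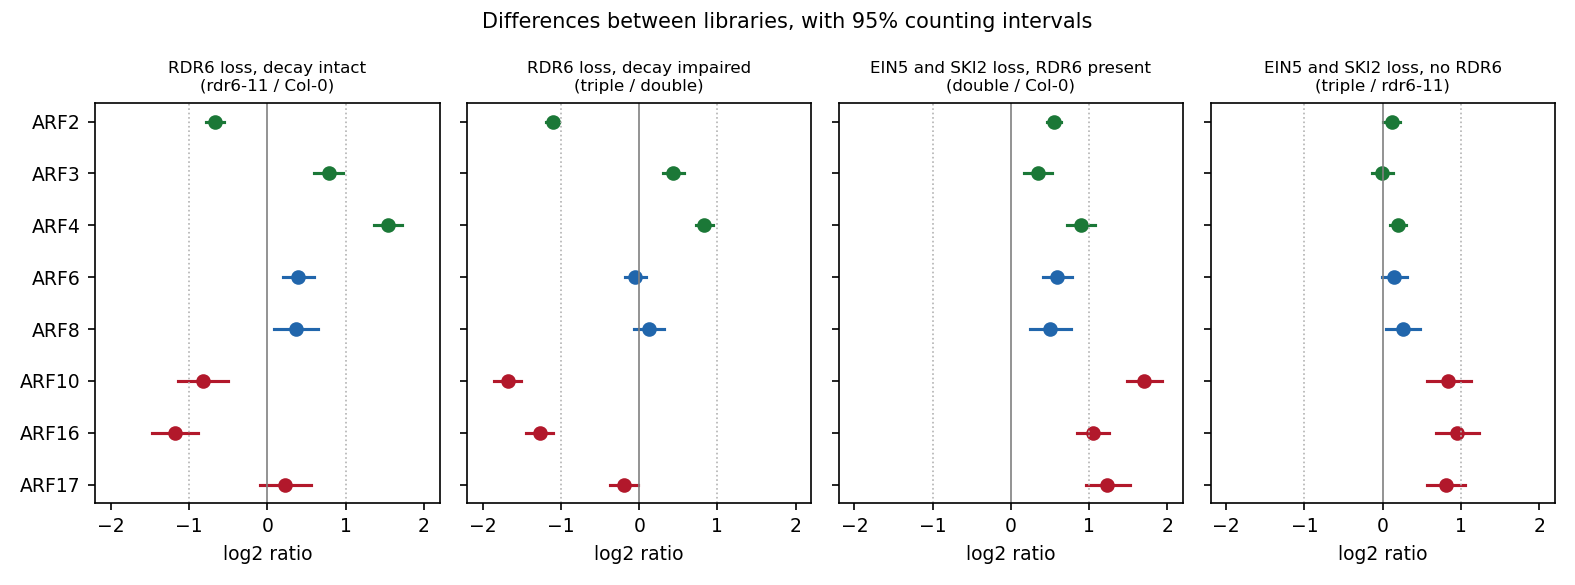
Log2 ratios of the 8 auxin response factors in 4 comparisons between libraries (green TAS3, blue miR167 and red miR160 targets; dotted lines mark 2-fold), with 95% intervals on the counts as deposited, which cover counting error only. The miR160 targets pass 2-fold in the double mutant against Col-0 (1.05 to 1.70; ARF16 falls to 0.994 with median-of-ratios size factors), and ARF4 passes it in rdr6-11 against Col-0 (1.54).

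For rdr6-11 against Col-0 the rule called 2 of the 8, ARF4 higher and ARF16 lower, where it called 10.4% of 13300 measured genes and 7.23% of those with 100 reads in both libraries. The median of the 8 was 0.29, against -0.038 over all genes, and it covers genes that lay on both sides of Col-0. Scaled by total nuclear counts, 1 of the 8 passed 2-fold. The triple mutant against Col-0 had ARF4 and ARF17 higher, 2 of 8, where 10.7% of 14307 measured genes were called and 7.65% of those with 100 reads in both. Scaled by total nuclear counts ARF3 (1.04) passed as well, which made 3 of 8. ARF10, with a log2 ratio of 0.023 (-0.29 to 0.33), and ARF16, with -0.23 (-0.51 to 0.05), were near the Col-0 level in the triple mutant.

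When RDR6 was absent from both libraries, loss of EIN5 and SKI2 called none of the 8, in a comparison that called 1.45% of 14234 measured genes and 0.726% of those with 100 reads in both. The 3 miR160 targets nevertheless had the highest ratios of the 8. ARF16 had 0.95 (0.55 to 1.34), ARF10 0.84 (0.43 to 1.24) and ARF17 0.81 (0.47 to 1.16), and 1.39%, 1.97% and 2.23% of the measured genes had ratios as high. The other 5 had ratios from -0.0024 to 0.26. The median of the 8 was 0.23, against 0.044 over all measured genes. With total counts that include organelle genes, or in the authors' RPKM, 1 of the 8 passed 2-fold.

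The reverse comparison, loss of RDR6 with both decay factors already lost, called ARF2, ARF10 and ARF16 lower. That is 3 of 8, where 12% of 15642 measured genes were called lower and 23.1% in either direction, and 8.23% were lower among those with 100 reads in both. ARF10 had a log2 ratio of -1.68 (-1.93 to -1.45) and ARF16 of -1.27 (-1.51 to -1.05). ARF4 had 0.83 (0.71 to 0.96) and ARF3 0.43 (0.27 to 0.59) in the same pair of libraries.

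**Figure D3:**
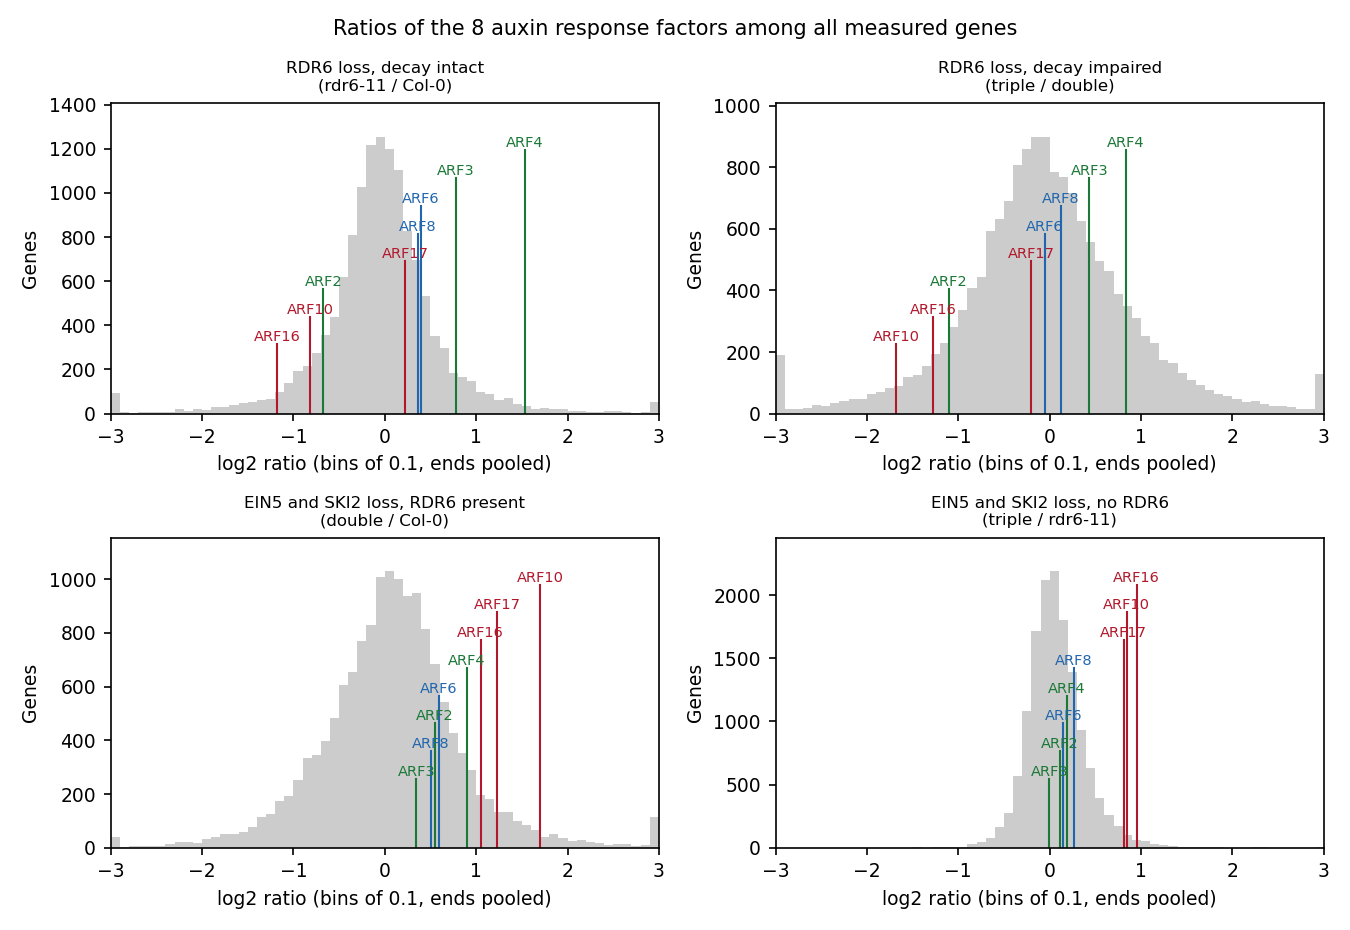
Histograms of the log2 ratios of all measured genes (y, number of genes) in 4 comparisons, with the 8 auxin response factors as marked lines whose height has no meaning. In the triple mutant against rdr6-11 most genes lie close to 0 and the 3 miR160 targets, at 0.81 to 0.95, lie in the upper tail.

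A set of 4 libraries (Col-0, rdr6-11, and the double and triple mutants) shows RDR6 loss in 2 backgrounds, with decay intact and with both decay factors lost. A limma fit (voom weights, additive in the 2 factors) over these libraries has 1 residual degree of freedom, so its error rests on the disagreement of the 2 backgrounds, shared across 20211 genes. RDR6 loss passed an adjusted p of 0.05 (Benjamini-Hochberg) for 1339 genes, 6.63%, of which 557 (2.76%) were higher and 782 (3.87%) lower. With no filter on low counts it passed for 0 of 30311 genes. Of the 8 genes, 1 rose and 2 fell.

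ARF4 rose by a fitted log2 difference of 1.20 (SE 0.263, limma adjusted p 0.0395), and was higher in 2 of 2 backgrounds. ARF10 fell by 1.32 (SE 0.285, limma adjusted p 0.0381) and ARF16 fell by 1.23 (SE 0.236, limma adjusted p 0.0268), each lower in 2 of 2 backgrounds. These calls lie near the threshold: over 6 settings of the fit the adjusted p ran from 0.0395 to 0.157 for ARF4, 0.0381 to 0.158 for ARF10 and 0.0268 to 0.120 for ARF16. With the counts of rdr6-11 and the triple mutant halved, the limma adjusted p was 0.0524 for ARF4 and 0.0609 for ARF10.

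The other 5 did not pass. ARF2 had a fitted difference of -0.86 (SE 0.255, limma adjusted p 0.0899) and ARF3 of 0.61 (SE 0.228, limma adjusted p 0.154). ARF6 had 0.17, ARF8 0.23 and ARF17 -0.028, with limma adjusted p of 0.688, 0.574 and 0.955. None of the 7 other auxin response factors tested passed. The clock genes and even counts described above follow the same libraries, and their part in these differences was not tested.

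Loss of both decay factors, fitted over both states of RDR6, passed for 0 of 20211 genes with limma voom. At an unadjusted p under 0.05 there were 1990, and limma-trend gave 0 and 1909. The largest fitted differences among the 8 were those of ARF10 (1.30, SE 0.288, limma adjusted p 0.462), ARF17 (1.01, limma adjusted p 0.470) and ARF16 (1.00, limma adjusted p 0.466).

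**Figure D4:**
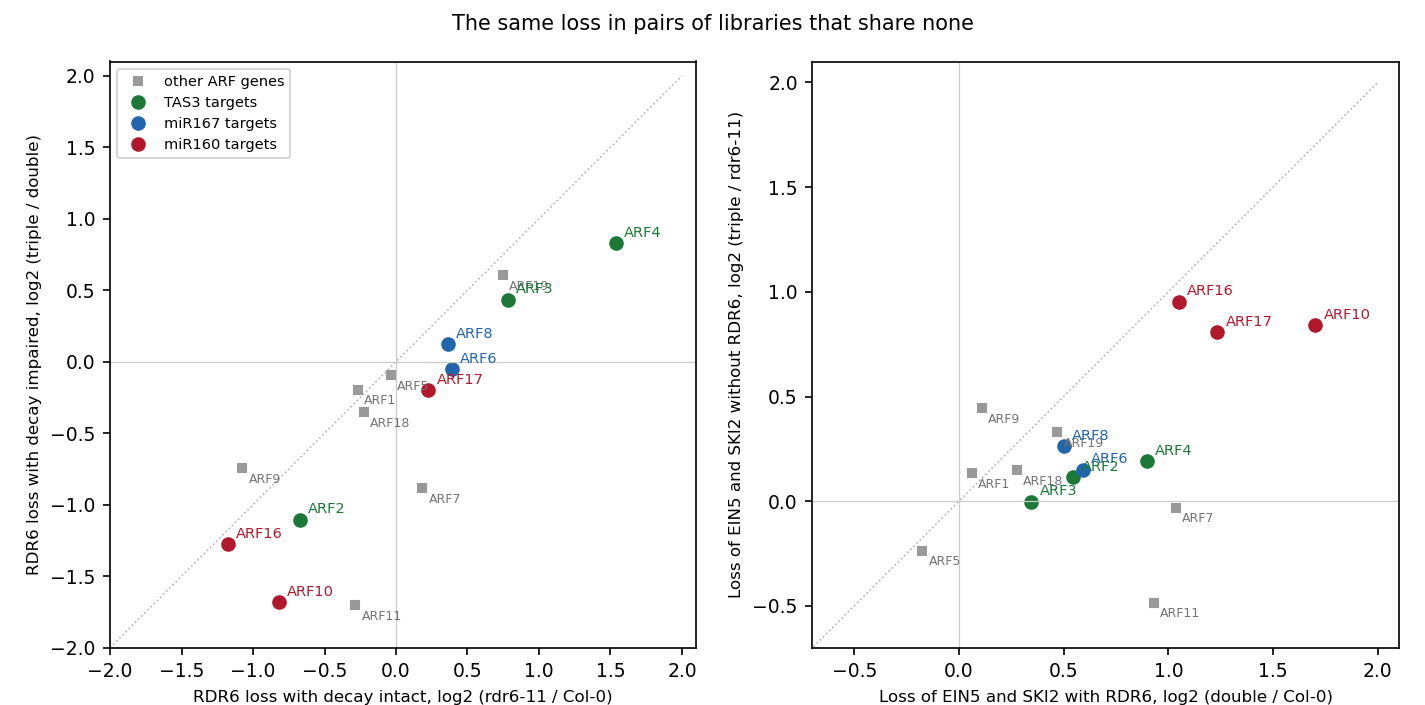
Left, the log2 difference on RDR6 loss with decay intact (x) and with EIN5 and SKI2 lost (y); right, that on loss of EIN5 and SKI2 with (x) and without RDR6 (y), for the 8 genes and 7 other auxin response factors, the dotted line marking equal values. ARF4 lies at 1.54 and 0.83 and ARF10 at -0.82 and -1.68 on the left, and ARF16, at 1.05 and 0.95 on the right, lies closest to the line among the 8.

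The same loss of EIN5 and SKI2 can be set side by side with and without RDR6 in pairs that share no library. ARF16 had log2 ratios of 1.05 and 0.95, ARF17 of 1.23 and 0.81, and ARF10 of 1.70 and 0.84. ARF4 had 0.90 and 0.19, ARF2 0.55 and 0.11, ARF6 0.59 and 0.15, ARF8 0.50 and 0.26, and ARF3 0.34 and -0.0024. All 8 were lower without RDR6, by 0.096 for ARF16 to 0.86 for ARF10. Over 10754 genes with at least 100 reads in every library the median of the same difference (without RDR6 minus with it) was 0.066, with quartiles of -0.26 and 0.45. The difference could not be tested gene by gene, since it is the 1 degree of freedom that the fit uses for error.

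Set against the sum of the single-mutant ratios, the double mutant was higher by 1.18 for ARF10, 0.78 for ARF4, 0.76 for ARF2, 0.66 for ARF16 and 0.56 for ARF3. It was near the sum for ARF17 (-0.10) and ARF8 (-0.12) and lower for ARF6 (-0.37). The median over the 10754 genes was -0.098, with quartiles of -0.50 and 0.27. Each of these values uses the Col-0 library, and none has a test.

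TAS3A, the source of the siRNAs for ARF2, ARF3 and ARF4, had 61 reads in Col-0, 44 in ein5-1, 55 in ski2-3, 41 in the double mutant, 202 in rdr6-11 and 251 in the triple mutant. Both libraries without RDR6 were above all others, and the fit gave a rise of 2.07 (SE 0.433, limma adjusted p 0.0352). MIR167D, the precursor of miR167d, had 32, 40, 55, 28, 147 and 94 reads in the same order and rose by 1.84 (limma adjusted p 0.0358). For miR167d no site within 4 mismatches was found in ARF6 or ARF8. MIR167A had 26 to 49 reads and MIR160A 1 to 13. Of the 12 precursors listed, 3 had enough reads for the fit and 2 of them rose, where 2.76% of all genes tested did. The clock genes and even counts follow the same libraries, and their part was not tested. With no filter on low counts the limma adjusted p was 0.158 for TAS3A and 0.137 for MIR167D.

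Of 10 factors of the siRNA and miRNA pathways, RDR6 was the 1 that passed for RDR6 loss, where 6.63% of all genes tested did. It fell by 1.56 (limma adjusted p 0.0148). AGO7, which binds miR390, had a log2 ratio of 1.26 (0.96 to 1.58) in the double mutant against Col-0, and SGS3, which stabilises cleaved TAS RNA for RDR6, had 1.00 (0.71 to 1.31). These were the 2 of 10 factors called higher by the rule of size, which called 8.6% of all measured genes higher. Without RDR6 the same loss gave 0.33 for AGO7 (-0.098 to 0.74) and -0.11 for SGS3 (-0.56 to 0.32). In the triple against the double mutant SGS3 (-1.08), DRB4 (-1.02) and DCL1 (-1.20) were at least 2-fold lower, besides RDR6 (-1.37). That is 4 of 10, where 12% of all measured genes were called lower and 23.1% in either direction. AGO1, the slicer for miR160 and miR167, had -0.22 in that pair. DCL1, which makes miRNAs, had -0.96 for RDR6 loss (limma adjusted p 0.0561), which did not pass.

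Of 21 Aux/IAA repressor genes tested, 1 rose on RDR6 loss and 0 fell, where 2.76% and 3.87% of all genes tested did. It was IAA17, with 10.6 to 13.9 scaled RPM in the 4 libraries with RDR6 and 48.7 and 43.5 in rdr6-11 and the triple mutant (1.89, limma adjusted p 0.0103). Of 5 GH3 genes, whose enzymes join auxin to amino acids, 2 fell, GH3.2 by 2.24 (limma adjusted p 0.0125) and GH3.3 by 1.89 (limma adjusted p 0.0153). GH3.2 had 11.1 to 43.5 scaled RPM with RDR6 and 4.44 and 2.65 without it. Over 6 settings of the fit the highest limma adjusted p was 0.088 for IAA17, 0.0886 for GH3.2 and 0.108 for GH3.3. The clock genes differ between the same libraries, and neither their part nor that of the auxin response factors was tested. By the rule of size, IAA2 was at least 2-fold higher than Col-0 in rdr6-11, and also in the double (1.21) and triple (1.56) mutants. IAA8 was lower than Col-0 in ski2-3 (-1.02) and the double mutant (-1.51), and higher in the triple than in the double mutant (1.53). GH3.2 was lower than Col-0 in ein5-1 (-1.06) and the double mutant (-1.09) too. Against Col-0 the rule called 3.5% of all measured genes in ein5-1, 3.6% in ski2-3, 15.6% in the double mutant, 10.4% in rdr6-11 and 10.7% in the triple mutant. In the triple against the double mutant 4 of 5 GH3 genes were lower, from -1.39 for GH3.17 to -2.38 for GH3.3. In that pair 12% of all measured genes were called lower and 23.1% in either direction.

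Likeness between patterns was measured as the root mean square difference of the 5 mutant log2 ratios to Col-0. ARF6 and ARF8 were the closest pair of the 8, at 0.177, followed by ARF3 and ARF8 at 0.339 and ARF10 and ARF16 at 0.365. ARF2 and ARF4, both TAS3 targets, were among the least alike, at 1.44. The 7 pairs that share a small RNA had a median of 0.730 and the 21 pairs that do not had 0.789.

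Among 10594 other genes, those closest to the mean miR160 pattern were AT5G37600 (a glutamine synthetase, 0.0975), AGO2 (an Argonaute, 0.157) and AT3G28950 (0.159). Closest to the mean miR167 pattern were AT3G47250 (0.0756), SWA1 (0.0773) and SCL1 (0.0813). Closest to the mean TAS3 pattern, an average of genes that moved apart, were P5CS2 (0.0904), AAO3 (0.0948) and AT3G18280 (0.0971). These are descriptions over 5 ratios that share the Col-0 library.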

How the data were processed

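RNA was sequenced from 6 samples, 1 library per genotype, and the authors deposited 1 table. It held raw read counts per gene, as whole numbers, and RPKM values, per the file headers; other deposited columns were not used. Reads were mapped with BWA to TAIR9, per the submitters' processing notes; the version, the counting and the use of strand were not given in the sources used here. An empty cell was read as 0 reads. No annotated gene overlapped any of the 8. Because the builds differ, site coordinates come from matching sequence to TAIR10.1.

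Library scaling used TMM factors from nuclear genes (trims 0.3 and 0.05; numpy 2.4.6) with a pseudocount of 0.5. Ratios carry exact 95% Clopper-Pearson intervals (scipy 1.17.1) on the 2 counts. They cover counting error only, since 1 library per genotype gives no spread between samples. Reads that are PCR copies are not independent molecules, so the intervals may be too narrow even for counting error. The factorial fit used limma 3.58.1 on genes with at least 10 reads in at least 2 of 4 libraries. The planned edgeR quasi-likelihood test was replaced by limma voom because cells without a value kept the table from qualifying as counts. On simulated data with 200 genes changed 4-fold, the fit recovered 100% of them with 10 false calls, for either factor. How well it recovers 4-fold differences in the measured libraries was not tested. In those libraries loss of both decay factors passed for 0 of 20211 genes. The 8 genes, the lists and the rule for named genes were chosen with earlier results of these data known; the rule named all 8, listed precursors and pathway factors with at least 100 reads in a library, and of other lists those at least 2-fold different plus the extremes. MIR167A, MIR160A, GH3 and Aux/IAA genes named for the fit, AGO2 and the other likeness genes (the 3 closest to each group mean), and the clock and leaf genes are also given, the last 2 sets chosen after the data were seen.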

Additional observations from a re-analysis of the deposited data

Results flagged for a closer look

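In 3 of the 8 genes the same loss gave log2 differences of opposite sign in the 2 backgrounds. The share of all genes with such opposite signs was not computed, so the count of 3 has nothing to be set against. ARF3 had 0.34 on loss of EIN5 and SKI2 with RDR6 present and -0.0024 without it. ARF6 had 0.39 on RDR6 loss with decay intact and -0.050 with EIN5 and SKI2 lost. ARF17 had 0.23 and -0.20 for the same 2 losses of RDR6. The ARF3 value without RDR6 turned positive with 3 other scalings and in the authors' RPKM, and that of ARF6 with EIN5 and SKI2 lost with median-of-ratios size factors. Each background is 1 pair of libraries, and these differences were not tested.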

How the results depend on the processing

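Of 336 recomputed log2 ratios of the 8 genes, 266 stayed inside their main counting interval and 70 did not. A scaling moves all 8 nearly alike, so the 336 are not separate checks. The called ratios changed sign in 0 cases, which was close to fixed in advance. They are at least 1 in size, and the largest shift of the all-gene median by a scaling was 0.41. With total nuclear counts as the scaling, the count of the 8 past 2-fold became 5 in the double mutant against Col-0, 1 in rdr6-11 against Col-0 and 3 in the triple mutant against Col-0. In the double mutant it was 2 with median-of-ratios size factors, which lost ARF16 (0.994), and 4 under 3 other settings. In the triple mutant against rdr6-11 it became 1 with total counts that include organelle genes and 1 with the authors' RPKM. The share of all measured genes past 2-fold was not computed under these other settings. Scaling by total nuclear counts moved the median of all measured genes by 0.16 to 0.41 for the 5 comparisons with Col-0; median-of-ratios size factors moved it by at most 0.057 in any of the 7. The count of genes that pass a limma adjusted p of 0.05 for RDR6 loss was 1339, and 899 to 1268 under 4 other settings. Limma-trend with the filter was 1 of these, with 1011. With no filter beyond 1 read the count was 0 of 30311, where limma gave 4843 at an unadjusted p under 0.05. The fitted RDR6 loss of ARF17 changed sign to 0.022 with median-of-ratios size factors and 0.013 with limma-trend, an alternative chosen after seeing the data; the cause was not tested. The adjusted p missed 0.05 with no filter for ARF4 (0.157), ARF10 (0.158) and ARF16 (0.120), with limma-trend for ARF4 (0.0513) and ARF10 (0.0560), and with median-of-ratios size factors for ARF10 (0.0506). DESeq2 was not run. No paired analysis was possible because there was 1 library per genotype. The fit cannot spare a library, since 1 residual degree of freedom is all it has.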

Other observations

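IAR3, listed as a target of miR167 although the search found no site in it, is an enzyme that frees auxin from amino acid conjugates. It had 206 scaled RPM in Col-0, 113 in ein5-1, 339 in ski2-3, 108 in the double mutant, 79.8 in rdr6-11 and 75.9 in the triple mutant. Its log2 ratio to Col-0 was -1.37 in rdr6-11 and -1.44 in the triple mutant. It was highest in ski2-3, whereas ARF6 and ARF8 had their lowest level in Col-0. Its fitted log2 difference on RDR6 loss was -0.95 (limma adjusted p 0.0919), which did not pass.

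IAA28, an Aux/IAA repressor, had 8.51 scaled RPM in Col-0, 9.87 in ein5-1, 7.12 in ski2-3, 26.7 in the double mutant, 5.98 in rdr6-11 and 10.3 in the triple mutant. The double mutant was highest and rdr6-11 lowest, as for ARF10 and ARF16. GH3.5 had 57.7, 45.5, 46.2, 149, 34.6 and 36.7 scaled RPM in the same order of libraries, again with the double mutant highest and rdr6-11 lowest.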
